A study of Caenorhabditis elegans with 2 samples.

Results

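The 9 genes described here make fatty acids and put double bonds into them: pod-2 and fasn-1, which build the chain, and the 7 desaturase genes fat-1 to fat-7. They were chosen by their function, by gene name, with earlier results of these peak lists known, including the pod-2 and fasn-1 peaks. They are 9 of 19973 protein-coding genes on the nuclear chromosomes in the Ensembl annotation of WBcel235, the assembly also called ce11. A chromatin immunoprecipitation and sequencing experiment recorded where ALY-2, a worm relative of the Aly/REF mRNA export adaptors, lay on DNA in Caenorhabditis elegans. There was 1 group with 2 biological replicates, both whole L4 larvae of mixed sex and unstated age from 1 transgenic strain, OP217. This strain carries the ed3 allele of unc-119 on chromosome III and the insertion ddIs172, a stable source of ALY-2 fused C-terminally to GFP-FLAG. The labels call the replicates biological without saying how they were grown, and no untagged or treated group is compared, so every value below is a description with no test. Tissues were not separated, so strong binding in few cells and weak binding in many cannot be told apart.

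Fatty acid synthesis starts when acetyl-CoA carboxylase, the pod-2 product, turns acetyl-CoA into malonyl-CoA, and fatty acid synthase, a long multidomain enzyme encoded by fasn-1, joins these units into palmitic acid. Desaturases then act on the chain: FAT-5 on palmitoyl-CoA, FAT-6 and FAT-7 mainly on stearoyl-CoA to give oleic acid, FAT-2 on oleic acid to give linoleic acid, FAT-1 to give omega-3 fatty acids, and FAT-3 and FAT-4 toward the carboxyl end on the way to arachidonic and eicosapentaenoic acid. The worm makes its polyunsaturated fatty acids from simple precursors in this way, largely in the intestine. Aly/REF proteins bind mRNA as it is made and help to hand it to the export machinery.

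The sequences under the strongest pod-2 and desaturase peaks of the list made from both replicates are shown because they differ in kind: coding sequence in pod-2, sequence just past the gene in fat-1 and fat-2, and sequence near the start of fat-6. Each is read 5′ to 3′ on the gene's strand from the RefSeq copy of the WBcel235 genome, with untranslated regions left out, and the capitals mark the 21 bases centred on the peak summit.
pod-2, strongest peak, chrII:1150243-1150542, plus strand: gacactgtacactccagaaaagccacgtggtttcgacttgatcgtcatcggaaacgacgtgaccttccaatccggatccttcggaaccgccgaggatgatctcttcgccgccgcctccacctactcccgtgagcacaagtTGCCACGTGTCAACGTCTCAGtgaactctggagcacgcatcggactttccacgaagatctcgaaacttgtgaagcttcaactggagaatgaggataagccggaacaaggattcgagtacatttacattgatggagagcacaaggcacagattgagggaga
pod-2, second peak, chrII:1149371-1149670, plus strand: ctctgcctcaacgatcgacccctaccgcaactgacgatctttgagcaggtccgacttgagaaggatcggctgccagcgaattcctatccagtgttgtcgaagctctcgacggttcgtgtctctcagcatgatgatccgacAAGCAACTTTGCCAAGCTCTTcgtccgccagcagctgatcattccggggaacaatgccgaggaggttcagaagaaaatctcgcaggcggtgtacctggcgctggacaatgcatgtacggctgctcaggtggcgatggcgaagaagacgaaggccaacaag
fat-1, past the gene end, chrIV:13318812-13319059, plus strand: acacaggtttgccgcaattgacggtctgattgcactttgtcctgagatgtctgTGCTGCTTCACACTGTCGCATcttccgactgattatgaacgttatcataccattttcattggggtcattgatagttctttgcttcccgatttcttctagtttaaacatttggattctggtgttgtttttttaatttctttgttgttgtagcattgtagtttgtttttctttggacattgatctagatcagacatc
fat-2, past the gene end, chrIV:13326397-13326696, plus strand: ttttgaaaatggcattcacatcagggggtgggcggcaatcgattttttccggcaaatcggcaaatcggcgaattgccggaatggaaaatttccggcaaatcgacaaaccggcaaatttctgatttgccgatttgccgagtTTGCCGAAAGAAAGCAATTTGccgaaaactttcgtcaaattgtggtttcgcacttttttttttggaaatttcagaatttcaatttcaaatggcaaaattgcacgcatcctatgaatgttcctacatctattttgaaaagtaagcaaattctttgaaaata
fat-6, near the gene start, chrIV:11915305-11915604, minus strand: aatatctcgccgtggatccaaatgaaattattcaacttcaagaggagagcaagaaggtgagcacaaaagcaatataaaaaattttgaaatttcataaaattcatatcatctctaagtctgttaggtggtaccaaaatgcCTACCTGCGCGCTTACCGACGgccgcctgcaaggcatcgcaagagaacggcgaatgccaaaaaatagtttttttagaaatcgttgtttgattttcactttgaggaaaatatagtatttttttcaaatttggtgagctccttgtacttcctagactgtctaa
The 300 bases of the strongest pod-2 peak were 52% G and C, and those of the second 55.7%. The 248 bases past the end of fat-1 were 38.3% G and C and 43.2% T on the gene's strand. Of the 20-base sequences in the peak past fat-2, 44.7% occurred once in the nuclear genome, against 100% in both pod-2 peaks and in the fat-1 peak.

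Peaks were read from 4 lists: the peaks past the authors' optimal threshold of the irreproducible discovery rate (193, called reproducible here), a permissive list from both replicates together (3341, called combined), and a permissive list for each replicate (17453 in replicate 1 and 29384 in replicate 2). The reproducible peaks were the 193 with the highest signal in the combined list. Signal is the authors' deposited value per peak, on a scale that is not stated, and a percentile here is the percentage of the other peaks in the same list with lower signal. A gene was counted as having a peak where a peak overlapped it or the 1000 bp upstream or 500 bp downstream by at least 1 bp. Read depth is unknown.

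Both chain-building genes and 1 of the 7 desaturase genes carried a reproducible peak: pod-2 had 2, fasn-1 had 3 and fat-1 had 1. Among all protein-coding genes, 1.27% had such a peak, and among the 803 whose window was at least as long as that of fasn-1, 3.99% did. Among the 5264 genes with a window as long as those of the desaturases, 0.912% did. In the combined list 5 of the 9 genes had a peak (pod-2, fasn-1, fat-1, fat-2 and fat-6), against 16.1% of all protein-coding genes, 45.2% of the long ones and 14.2% of those of desaturase length. The replicate lists reach far down in signal, and a peak in them was common: 7 of the 9 genes had one in replicate 1 and 8 of 9 in replicate 2, against 55.6% and 69.0% of protein-coding genes. For the desaturases alone these counts were 5 of 7 and 6 of 7, against 55.0% and 70.3% of genes of their length. Since the members were chosen with these lists known, these shares are background and not a test.

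In pod-2 most combined summits lay in long coding exons toward the 3′ end of the gene. This gene (WBGene00004076, II, 1136785 to 1152705, plus strand) is 15.92 kb long, and exon 9 of its 11 exons held most of its combined summits. The strongest peak, at 1150208 to 1150577, had a signal of 49.2 in the combined list, rank 25 of 3341. Its summit lay in exon 9, 13608 bp from the gene start. The nearest replicate 1 peak there had signal 19.5 (rank 105) and the nearest replicate 2 peak 28.6 (rank 51), with summits 8 and 5 bp away, so both replicates placed a strong peak at the same bases. A second reproducible peak, at 1149336 to 1149705 in the same exon, had a combined signal of 33.5 (rank 165). There the replicates differed in rank, at 165 in replicate 2 (signal 21.4) and 5810 in replicate 1 (signal 9.86).

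The other 6 combined peaks of pod-2 had signals from 21.7 to 32.2. The highest of these, in exon 10 at 1151840 to 1152209, ranked 201 and so lay just outside the reproducible list, whose lowest signal was 32.6. Exon 9 held 5 of the 8 summits, exons 7 and 10 held 1 each, and 1 lay in an intron 4287 bp from the start. No peak of the combined or replicate lists had its summit upstream of pod-2. The replicate 2 peaks were more spread: 10 of the 21 summits lay in coding exons, and most of the rest in introns. Only 7 of these 21 were in the final 25% of the gene body. The strongest replicate 1 peak of pod-2 (signal 21.6, rank 59) matched a weaker combined peak in exon 9, whose nearest replicate 2 peak ranked 1657. Replicate 2 in turn had a peak of 27.1 (rank 62) near the end of exon 9, where the combined peak ranked 585. These 8 combined peaks overlapped one another in part and formed 6 separate stretches.

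In fasn-1 the reproducible peaks also sat near the 3′ end, but all 3 ranked far higher in replicate 2 than in replicate 1. The gene (WBGene00009342, chromosome I, 8975366 to 8986540, minus strand) is 11.18 kb long with 11 exons. The strongest peak had a combined signal of 51.8 (rank 22) with its summit in the 3′ UTR in exon 11, 272 bp before the gene end. Replicate 2 gave it 35.9 (rank 22) at the same base, and the nearest replicate 1 peak gave 14.4 (rank 771) with its summit 151 bp away. The second, in exon 8 at 8976802 to 8977171, had a combined signal of 41.1 (rank 65), with rank 21 in replicate 2 (36.5) and rank 16660 in replicate 1 (7.22). The other, in exon 9 at 8976293 to 8976662, had a combined signal of 34.9 (rank 136), with rank 46 in replicate 2 and 5653 in replicate 1.

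Replicate 1 had its own strong peaks in fasn-1, farther from the 3′ end. They lay in exon 8 at 8978649 to 8979032 (signal 22.2, rank 48) and at 8977487 to 8977870 (22.15, rank 50). The first matched a combined peak of signal 25.7 (rank 515), and the second overlapped no combined peak. The strongest sites of the replicates in fasn-1 were thus different ones. The remaining combined peaks had signals of 27.8, 26.95 and 18.5, the last in an intron 2529 bp from the start, where replicate 1 had no overlapping peak. Replicate 2 also had a peak of signal 8.81 downstream of the gene that overlapped linc-80, and one of 4.33 upstream that overlapped F32H2.13.

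**Figure D1:**
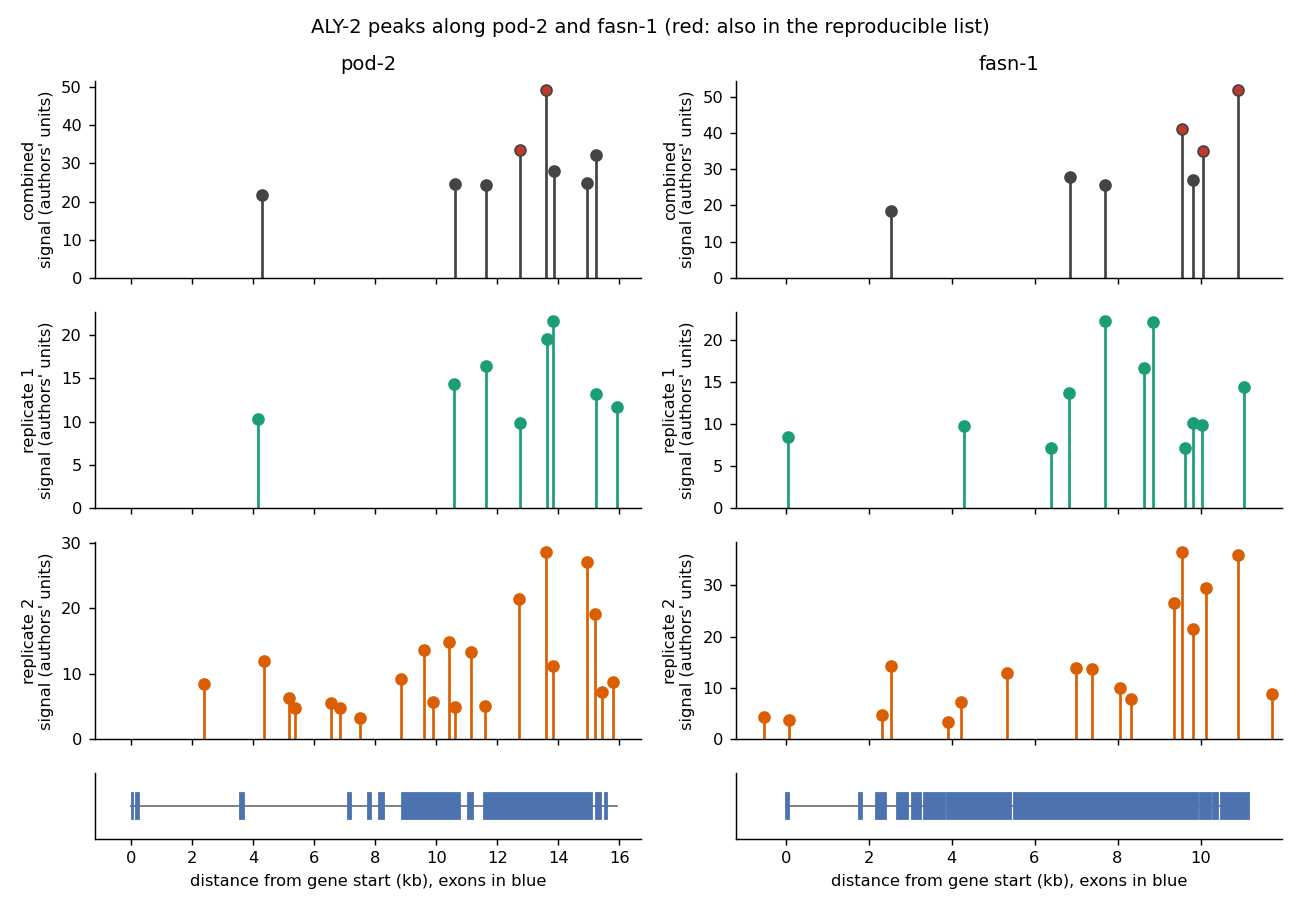
Signal at the summit of every combined, replicate 1 and replicate 2 peak against distance from the gene start in kb for pod-2 and fasn-1, with exons in blue and combined peaks that are also reproducible in red. The 2 reproducible peaks of pod-2 and the 3 of fasn-1 lie toward the 3′ end, and each list has its own signal axis.

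All 5 reproducible summits of these genes lay in the final 25% of the gene body, 4 of them in coding exons and 1 in a 3′ UTR. Among protein-coding genes with a body of 5 kb or more, the final 25% held 63.4% of the 71 reproducible summits and 41.1% of 1259 combined summits. For the combined list it held 5 of 8 summits in pod-2 and 4 of 7 in fasn-1. Coding sequence was itself uneven in pod-2, where the first 50% of the body held 4.70% and 2.74% of the coding bases in its first and second part and the final 25% held 52.5%. In fasn-1 the first part likewise held little, 6.2%, and the rest was spread over the others, with 32.4% and 35.6% in the middle parts and 25.8% in the final 25%.

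Both pod-2 and fasn-1 have a very long coding exon. Exon 9 of pod-2 has 3545 coding bases and exon 8 of fasn-1 has 4436, which is 54.6% and 56.6% of their coding sequence, and 43 and 25 of 121542 coding exons are as long or longer. These exons held 5 and 4 combined summits, or 141 and 90.2 per 100 kb. They held both reproducible summits of pod-2 but only 1 of the 3 of fasn-1. Across all protein-coding genes, coding exons of 2000 bp or more held 19.1 combined summits per 100 kb and those under 250 bp held 3.04. In share of exons, 34.4% of the 195 longest class and 0.391% of the shortest held a combined summit. The 2 genes were chosen with their peaks known and other properties of these exons were not compared, so the densities are a description.

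**Figure D2:**
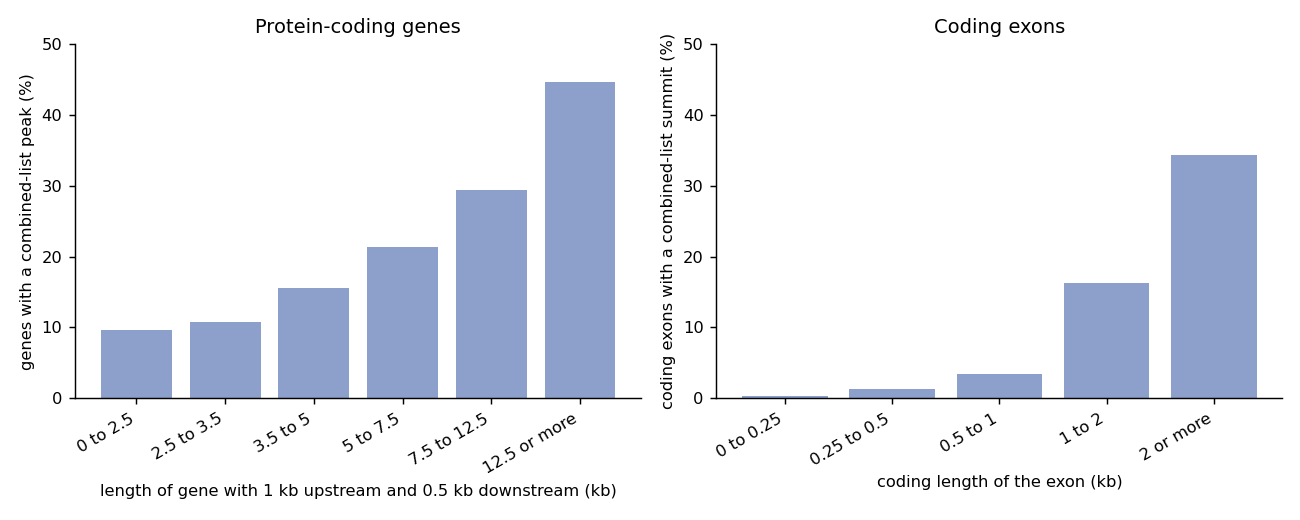
Left, percentage of protein-coding genes with a combined-list peak by the length of the gene with its flanks in kb. Right, percentage of coding exons with a combined-list summit by coding length in kb. Bars rise from 9.67% to 44.7% for genes and from 0.391% to 34.4% for exons.

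Among the desaturases fat-1, which makes omega-3 fatty acids, was alone in carrying a reproducible peak, and that peak sat just past its 3′ end. The gene (WBGene00001393, IV, 13315644 to 13318811, plus strand) ends 64 bp before the summit of the peak at 13318690 to 13319059. Its combined signal was 32.996, rank 183 and close to the lower edge of the reproducible list at 32.6. The replicates were near each other in rank, at 266 in replicate 1 (signal 17.2) and 261 in replicate 2 (signal 19.5), with summits 46 and 0 bp from the combined one. Neither was among the 193 strongest of its replicate, so with the 193 strongest peaks of either replicate in place of the reproducible list, fat-1 had no peak. pod-2 and fasn-1 still had at least 1 each, but in replicate 1 those of fasn-1 were at other sites than its reproducible peaks, which ranked 771, 16660 and 5653 there. Further replicate 1 peaks lay in the introns of fat-1 (signals 12.7 and 9.42) and further replicate 2 peaks past its end (6.07 and 4.23). The intronic ones overlapped no replicate 2 peak, while both of the latter overlapped a replicate 1 peak.

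The neighbouring gene fat-2, which makes linoleic acid, lies 5061 bp beyond fat-1 with no protein-coding gene between them (WBGene00001394, IV, 13323873 to 13326395, plus strand). It had 3 combined peaks, all weak. The peak past the gene end had signal 18.9 (rank 1879, summit 152 bp past the end), and the pair in exon 1 had 17.9 (rank 2396) and 17.8 (rank 2476), against a median of 19.5 over the combined list. In replicate 2 the strongest peak of fat-2, in exon 1, had signal 12.7 (rank 1055), and in replicate 1 the strongest, 676 bp upstream, had 9.78 (rank 6017). The replicates thus had different sites as their strongest. In the peak past the end of fat-2, 84.5% of 36-base sequences were unique in the nuclear genome and 1 sequence of 20 bases occurred 1278 times.

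At fat-6, a stearoyl-CoA desaturase gene (WBGene00001398, IV, 11913692 to 11915687, minus strand), the combined peaks overlapped peaks of replicate 2 only. Its stronger combined peak, at 11915270 to 11915639 with the summit in an intron 232 bp from the start, had signal 20.8 (rank 1248). Replicate 2 had a peak of 18.9 there (rank 288), while replicate 1 had none overlapping. The weaker one, 8 bp past the gene end, had a combined signal of 16.96 (rank 3018) and a replicate 2 signal of 10.2, again with none in replicate 1. A single replicate 1 peak of 10.2 (rank 4950) lay elsewhere in the gene, at 11913979 to 11914362.

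No combined or reproducible peak was found at the other 4 desaturase genes. For fat-7, the closest relative of fat-6 (V, 7151353 to 7153146, minus strand), the lists held 1 peak in all, a replicate 1 peak of signal 7.49 at percentile 13.3, with its summit 27 bp upstream. The palmitoyl-CoA desaturase gene fat-5 (V, 17725004 to 17726818, plus strand) had 1 peak in each replicate at different places, of signal 7.33 (percentile 8.09) 439 bp upstream in replicate 1 and 4.41 (percentile 37.8) past the gene end in replicate 2, where it overlapped twk-42. The adjacent pair fat-4 (IV, 9799429 to 9802226) and fat-3 (IV, 9803023 to 9806119), 796 bp apart on the plus strand, had peaks in replicate 2 only. Those of fat-3 had signals of 9.98, 7.50 and 3.50, and those of fat-4 8.11 and 5.92. A lack of peaks in a list does not show a lack of binding, and without depth no limit can be given.

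**Figure D3:**
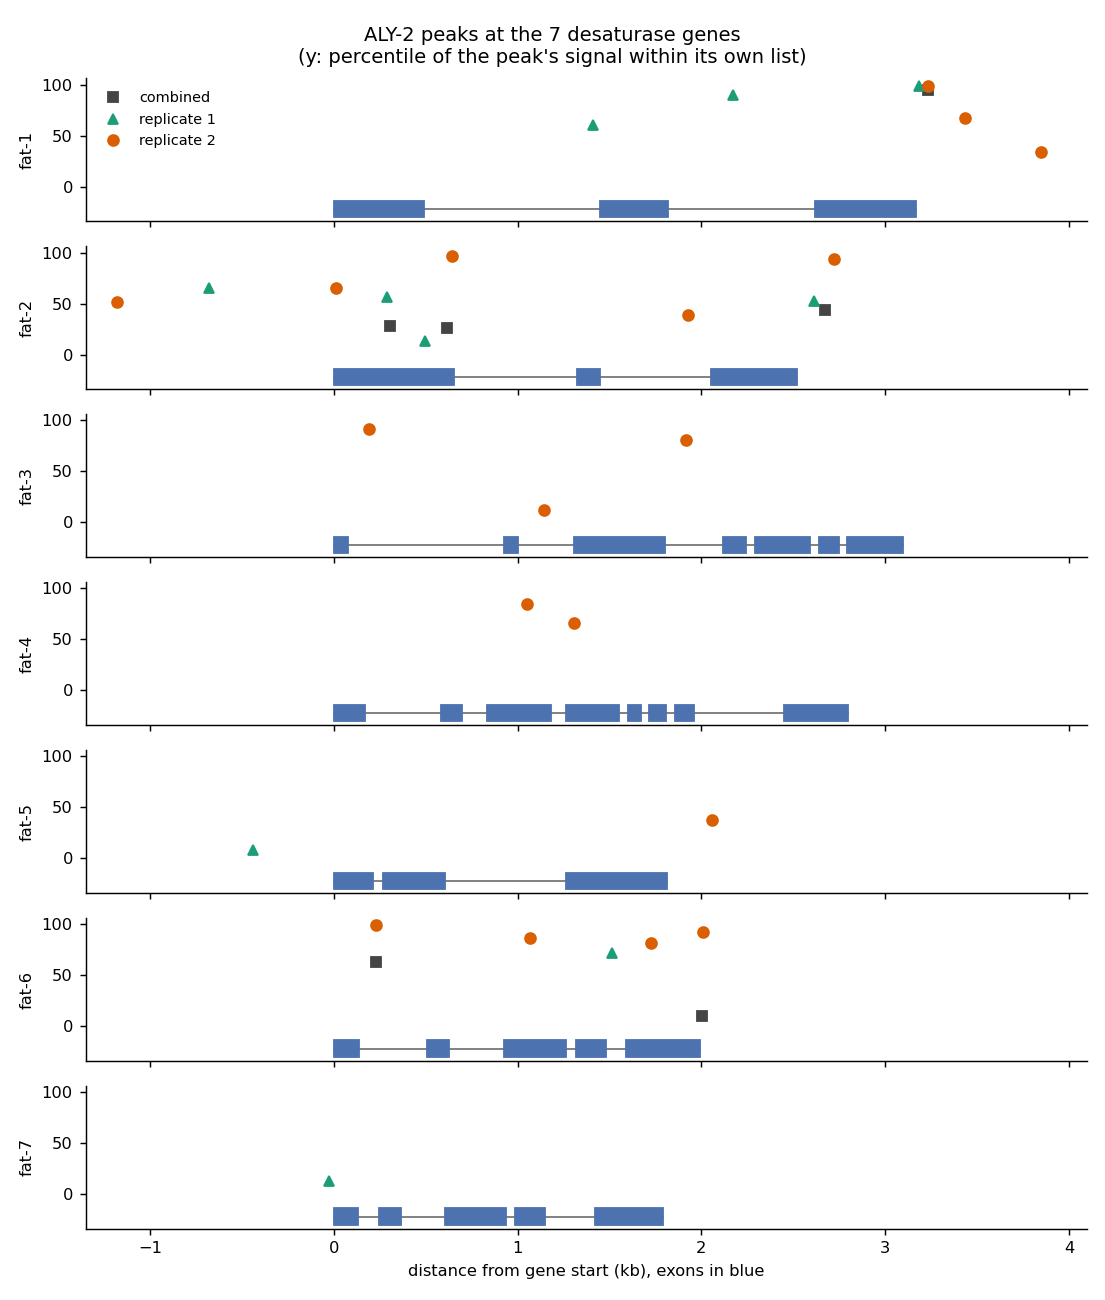
Percentile of each peak's signal within its own list against distance from the gene start in kb for the 7 desaturase genes, with exons in blue. Squares are combined, triangles replicate 1 and circles replicate 2 peaks, and only the fat-1 site past the gene end has all 3 near the top.

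Counted per length, pod-2 and fasn-1 together had 0.498 combined peaks per kb of window (15 peaks in 30.1 kb) and the desaturases 0.217 (6 peaks in 27.7 kb), while all protein-coding genes had 0.0461. For the reproducible list the values were 0.166, 0.0361 and 0.00299 peaks per kb. Replicate 1 gave 0.631, 0.361 and 0.208 peaks per kb for the same groups. Replicate 2 gave 1.26, 0.650 and 0.364. The order of the 3 groups was thus the same in each list, but single genes did not all follow it. In combined peaks per kb, fat-2 had 0.746 and fat-6 0.572, against 0.459 for pod-2 and 0.552 for fasn-1. For fat-1 the value was 0.214, and fat-3, fat-4, fat-5 and fat-7 had no combined peak. In the reproducible list fat-1 had 0.214, between 0.115 for pod-2 and 0.237 for fasn-1, and no other desaturase had a peak. These densities count overlapping peaks separately. Merged where they overlapped, the combined peaks formed 6 stretches in pod-2, 5 in fasn-1 and 2 in fat-2. The replicate 2 peaks formed 13 stretches in pod-2 and 10 in fasn-1. By kind of place, 12 of the 15 combined summits of pod-2 and fasn-1 were in coding exons and 0 were downstream, whereas of the 6 desaturase summits 2 were in coding exons, 1 in an intron and 3 downstream. The strongest combined peak of each desaturase with one was at percentile 94.6 for fat-1, 62.7 for fat-6 and 43.8 for fat-2, against 99.3 for pod-2 and 99.4 for fasn-1. The strongest replicate 1 peak of either gene was at 99.7, and the strongest replicate 2 peaks were at 99.8 for pod-2 and 99.9 for fasn-1. Replicate 2 put fat-1 and fat-6 close to these, at 99.1 and 99.0, and the other desaturases lower, at 96.4 for fat-2, 92.1 for fat-3, 84.7 for fat-4 and 37.8 for fat-5, with no peak for fat-7.

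**Figure D4:**
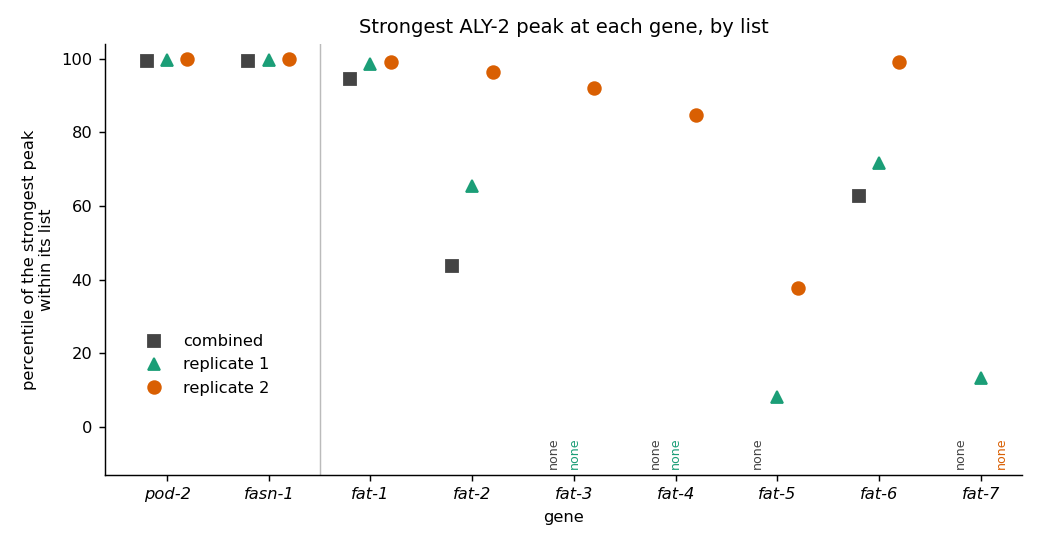
Percentile of the strongest peak of each gene within the combined, replicate 1 and replicate 2 lists, with "none" where a list had no peak. The points of pod-2 and fasn-1 lie at 99.3 or above in all 3 lists, and those of the desaturases spread from 8.09 to 99.1.

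Peaks of the replicates met often in pod-2 and fasn-1, where the peaks of both replicates were dense. All 8 replicate 1 peaks of pod-2 and 9 of the 11 of fasn-1 overlapped a replicate 2 peak, against 39.9% of the 14970 replicate 1 peaks in protein-coding windows. In the other direction 11 of 21 and 12 of 17 replicate 2 peaks overlapped a replicate 1 peak, against 25.5% of 25704. These windows held 0.631 replicate 1 and 1.26 replicate 2 peaks per kb, against 0.208 and 0.364 over protein-coding genes. Denser peaks overlap more often by position alone, and the overlap expected at this density was not computed. Since these genes were also chosen with their peaks known, the counts are a description and do not show unusual agreement. Over the 21 combined peaks of the 9 genes, all 21 overlapped a replicate 2 peak and 18 overlapped a replicate 1 peak as well. Of those 18, 14 were at a higher percentile in replicate 2, and over all combined peaks found in both replicates the share was 54.9%. The combined list was derived from both replicates' alignments, per the file descriptions, so it is no independent view of them.

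**Figure D5:**
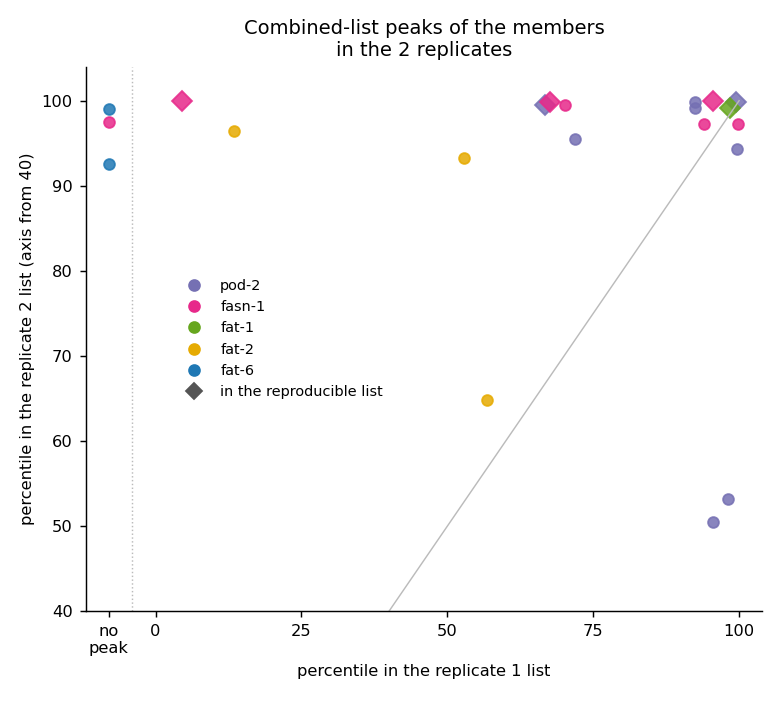
Percentile in replicate 2 (axis from 40) against percentile in replicate 1 for the overlapping replicate peaks at each of the 21 combined peaks of the members, with diamonds for reproducible peaks and a column for sites with no replicate 1 peak. Of the 6 diamonds, 1 of pod-2, 1 of fasn-1 (95.6 in replicate 1) and the 1 of fat-1 are near the top in both replicates. Another fasn-1 diamond is at 4.54 in replicate 1.

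GC content was higher at both reproducible pod-2 summits than at the fat-1 summit, while the intronic pod-2 summit, at 36.3%, was below it. Within 100 bp of the summit, the median over the 21 combined member peaks was 45.3% (range 36.3 to 55.2). It was 39.8% over all combined peaks and 42.3% over all reproducible peaks, and the nuclear genome was 35.4%. The reproducible pod-2 summits had 54.2% and 55.2%, beside 52.0% over the coding sequence of the gene. Those of fasn-1 had 45.3%, 42.8% and 45.3%, beside 44.7% over its coding sequence. The fat-1 summit had 37.8%. At least 96.8% of 36-base and 98.7% of 50-base sequences in every member's window occurred once in the nuclear genome. For 20-base sequences the share was 91.13% in pod-2 and 99.15% in fasn-1, and from 84.15% (fat-1) to 98.41% (fat-3) in the desaturases. In the pod-2 peak of combined rank 585, 92.2% of 36-base sequences were unique. Whether uniqueness bears on the peaks was not tested. The coding sequences of fat-6 and fat-7 were 84.1% identical over 1014 aligned bases and those of fat-5 and fat-6 66.1% over 990, yet 99.6% and 99.5% of the 36-base sequences in the windows of fat-6 and fat-7 were unique. Read length is not given in the sources used here.

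Of 69 further genes of lipid metabolism, in 7 lists, 2 had a reproducible peak and 23 had a combined one (33.3%). By list, the genes with a combined peak were 3 of 9 elongases, 1 of 6 partners of elongation and desaturation and 4 of 10 regulators. In a list of acetyl-CoA production, biotin attachment and biotin-dependent carboxylase genes, without pod-2, 4 of 8 had one. In phospholipid and triglyceride synthesis it was 5 of 14 genes, in fatty acid oxidation 5 of 13, and among fatty acid binding proteins 1 of 9. Among all protein-coding genes 16.1% had a combined peak and 1.27% a reproducible one, but the share rose with window length, so the counts are also given by length. With a window under 3.5 kb, 1 of 9 list genes (below 2.5 kb) and 4 of 19 had a combined peak, against 9.67% and 10.7% of all genes of those lengths. From 3.5 to 5 kb it was 7 of 18 against 15.5%, and from 5 to 7.5 kb 7 of 17 against 21.4%. Of the longest, 3 of 5 below 12.5 kb and the 1 above it had one, against 29.5% and 44.7%. These lists were not tested. The strongest of these peaks, with combined signal 91.3 (rank 3), lay 478 bp past the end of acs-19, an acetyl-CoA synthetase gene, and 278 bp from the start of the ribosomal protein gene rpl-3. The other reproducible one, of signal 33.9 (rank 158), lay in the 3′ UTR of cept-2, a gene of phospholipid synthesis. Its summit was 529 bp from the start of vha-13.

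Among genes with combined peaks alone, elo-3 had signal 26.0 (rank 490) with its summit 100 bp past its end, where the peak also overlapped gstk-2, and elo-5 had 21.8 (rank 1020) in its 3′ UTR, where the peak also overlapped F41H10.3. The propionyl-CoA carboxylase subunit gene pccb-1 had 29.3 (rank 300), 142 bp past its end and overlapping wrt-2. In the lists of regulators, mdt-15, which encodes a Mediator subunit needed for desaturase expression, had 24.9 (rank 580) in its 3′ UTR, and aak-2, an AMP-activated kinase subunit gene, had 20.1 (rank 1452) in an intron. Of the oxidation genes the highest were cpt-1, a carnitine palmitoyltransferase gene (20.04, rank 1473, 456 bp past its end and overlapping alkb-7), and kat-1, a thiolase gene (18.7, rank 1963). The highest of the remaining lists were hpo-19 (21.9, rank 993) and lbp-9 (17.5, rank 2642), both with a summit upstream. The hpo-19 peak also overlapped erfa-1. The lbp-9 summit, 1051 bp upstream, was nearer to the start of nhr-86, at 548 bp.

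Peaks most like the strongest of pod-2 were sought among the other reproducible peaks with a summit in a coding exon (50 such peaks of 193, those of pod-2 and fasn-1 included), by the distance between percentiles in the combined and both replicate lists. The nearest 5 lay in frm-7 (distance 0.557), top-2 (0.591), frm-1 (0.82), mua-3 (0.829) and R03D7.2 (0.894). All had percentiles of 98.4 or above in each list. For the fasn-1 peak, which is itself in a 3′ UTR, they lay in frm-1 (1.53), tln-1 (2.15), Y71F9AL.12 (2.25), unc-44 (2.57) and eel-1 (2.62). This likeness rests on 2 replicates and their pool.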

How the data were processed

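The data are peak lists from 2 replicates of 1 strain. Peaks were ranked within each list by the authors' deposited signal value, and the deposited −log10 q-value for 1 alternative ranking. Per the accompanying file descriptions, each replicate list was derived from that replicate's alignment and 1 further file, the combined list from both alignments and that file, and the optimal list from these 3. The labels name a possible control experiment, not analysed here. Not given in the sources used here: peak caller, aligner, versions and threshold. Only the ce11 lists were used, and no column was left without a sample or pool.

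Gene models came from Ensembl release 115 and sequence from the RefSeq copy of WBcel235, the same assembly. Coordinates are 1-based. Exon numbers refer to the transcript with the longest coding sequence. Summits were classed over all transcripts in the order coding exon, 5′ UTR, 3′ UTR, intron. Where several peaks of a replicate overlapped a combined peak, the one with the nearest summit was taken. Coding sequences were aligned globally. Peak counting was tested on simulated peaks.

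The members, lists and measures were chosen with earlier results of these data known. Named genes were the members, genes overlapping a member's peak in the reproducible or combined lists, list genes with a reproducible peak or otherwise the 2 highest per list, and the 5 most similar coding-exon peaks. pccb-1, linc-80, F32H2.13, twk-42, vha-13 and nhr-86, and the genes named in the closing observations, were chosen after their values were seen. Alternatives were other windows, summit position, a stricter threshold, each replicate alone, other backgrounds and ranking by q. Python 3.11.15, Biopython 1.88 and matplotlib 3.10.9 were used.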

Additional observations from a re-analysis of the deposited data

How the results depend on the processing

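No paired analysis was possible because the samples form a single group. Members with a peak numbered 3 in the reproducible list under each other window and with the summit rule, and 2 (pod-2 and fasn-1) at or above the median signal and with either replicate's 193 strongest peaks, though in replicate 1 at other fasn-1 sites. Combined-list members fell from 5 to 4 at or above the median signal, where fat-2 was lost. The share of genes with a reproducible peak moved from 1.27% to 0.681% at or above the median signal and to 0.795% over all annotated nuclear genes, and with either replicate alone it ranged from 1.14% to 1.32%. The strongest combined peak was at percentile 99.3 for pod-2 and 99.4 for fasn-1. Ranked by q, where 152 peaks tie, both were at 97.7. Each replicate's own strongest peak, in part at other sites, ranged from 99.67 to 99.83 for pod-2 and from 99.73 to 99.93 for fasn-1. At the strongest combined peak itself, the nearest replicate 1 peak was at 99.4 for pod-2 and 95.6 for fasn-1. No read depths were at hand to judge what depth limits.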

Other observations

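Genes with as many peaks as pod-2 and fasn-1 were few, with overlapping peaks counted separately. With 8 combined peaks, pod-2 was matched or exceeded by 7 other protein-coding genes: chd-7, eel-1, let-805, sma-1, unc-22, unc-44 and vab-10, several of which encode large cytoskeletal or adhesion proteins. With 3 reproducible peaks, fasn-1 shared the highest count with frm-1, unc-44 and vgln-1. Of the 803 protein-coding genes with a window at least as long as that of fasn-1, 11 had 7 or more combined peaks, fasn-1 and pod-2 included.

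Peak density was higher in the longest class of coding exons than in the shortest in each permissive list, at different strength. From coding exons under 250 bp to those of 2000 bp or more, summits per 100 kb went from 20.7 to 33.1 in replicate 1 and from 31.9 to 67.7 in replicate 2, beside 3.04 to 19.1 in the combined list. For the reproducible list the values were 0.0575 and 2.19 per 100 kb, from 7 and 14 summits. Between these classes the replicate lists did not rise steadily. Replicate 1 was still at 22.2 per 100 kb in coding exons of 500 to 1000 bp. Replicate 2 was already at 67.7 in those of 1000 to 2000 bp. No test was made.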
